A study of Anguilla anguilla with 45 samples.

Results

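In the European eel, Anguilla anguilla, 40 contigs were measured at log2 ratios at least 2 units higher in liver than in caudal fin, a difference of 4-fold or more. A contig is a transcript sequence assembled from sequencing reads, and the files name contigs by number only. Of 992 contigs in the deposited table, 817 had at least 5 values among 10 fin arrays (laboratory control and wild Certes eels) and at least 5 among the 10 liver arrays. The 40 contigs are those of the 817 whose mean over these 10 fins lay 2 log2 units or more below their mean over the 10 livers. At the opposite threshold, 88 contigs were higher in fin. The contigs were thus chosen by their measured levels in control fins, Certes fins and livers, and these levels are given as a description, without a test. The fins of the other 5 groups, and the differences between groups of the same tissue, were not used in the choice.

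Transcripts were measured on 45 2-colour microarrays: 7 groups of caudal fin made up 35 of them and 2 groups of liver the other 10, always 5 a group, with 1 array per fish number and tissue. Laboratory eels were unexposed controls, were held in water with 4 µg/L cadmium (Cd), or were given polychlorinated biphenyls (PCBs) at 50 or 300 ng/g, which the labels write as ng/g PS without explaining it. The wild eels were from 3 sites, Certes, the Gironde and the Garonne, and their exposure is not labelled. The livers were those of laboratory eels, either unexposed or held with Cd. Age, sex and length of exposure are not in the labels used here. Every sample was labelled with Cy3 and hybridised against the same Cy5-labelled reference, pooled from 30 wild eels of Certes, 15 caught in each of 2 years, with the tissue labelled as liver.

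The liver makes most proteins of the blood plasma, among them albumin, lipoproteins, clotting and complement factors, and it holds the enzymes that metabolise organic pollutants such as PCBs. Cd is bound there by metallothionein. The caudal fin is made of skin, fin rays with connective tissue, vessels and some muscle, and a clip of it can be taken from a living fish. The transcripts of many hepatocyte products are scarce in tissues such as fin. None of the contig numbers matched the gene table used here (0 matches), so no liver or fin marker could be checked, no role is given for a contig, and no sequence is shown.

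The values were log2 ratios, taken as sample over reference. This direction is an assumption. It is not stated with the values, the dyes and the common reference do not settle it, and all directions would swap if it were the opposite. Every array was centred to a median of 0 over its contigs, so a level is relative to the other contigs on that array. An array held 389 to 988 contigs, and 21.1% of all values were missing. In whole tissue, fewer cells of a type and less RNA per cell cannot be told apart. Because no dyes were swapped, a dye effect of a contig cannot be told apart from its difference to the reference. On 11 of the 25 fin arrays outside the choice the median of the 40 contigs lay within the range of the livers, -0.43 to 1.14: all 5 of the 50 ng/g PCB group, all 5 of the Gironde group and the array of Cd fish 45. The place of Gironde eel A315 depended on the contigs measured. Its median was -2.82 over 10 contigs with at least 8 of the 10 fin values of the choice. Over 14 contigs with 5 to 7 of these values it was -0.02. The tissue labels of the arrays within the range of the livers could not be checked against markers.

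Over the 40 contigs, fin minus liver had a median of -4.31, or 19.9-fold, against 0.19 over the 817 contigs. It ran from -8.53 (369-fold) to -2.01, and was at or below -4 in 21 contigs and at or below -6 in 6. In the median over contigs the fins lay farther from 0 than the livers. The reference is itself labelled as liver, so 0 is not a midpoint between the tissues. The fin mean was below 0 in 39 of the 40, below -3 in 23, and had a median of -3.32. The liver mean had a median of 0.82 and a range from -2.59 to 4.48. It was above 1 in 17 contigs, between -1 and 1 in 16 and below -1 in 7. A liver mean above 1 was found in 42.5% of the 40 contigs and in 14.9% of the 817. Of the 27 contigs with a fin mean below -3 among the 817, 23 are in the list. The rule itself favours high liver means and low fin means, so these shares are no separate result. The 17 contigs with a liver mean above 1 were also the least measured, with a median of 6 of the 10 fins and 7 of the 10 livers. Their median fin mean was -2.30, against -3.93 in the 16 contigs between -1 and 1 and -4.99 in the 7 contigs below -1. The threshold on fin minus liver asks for a lower fin mean where the liver mean is lower, so it favours this order. Values on all 20 of these arrays were present for 13 contigs, and a value on all 45 arrays for 1.

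**Figure D1:**
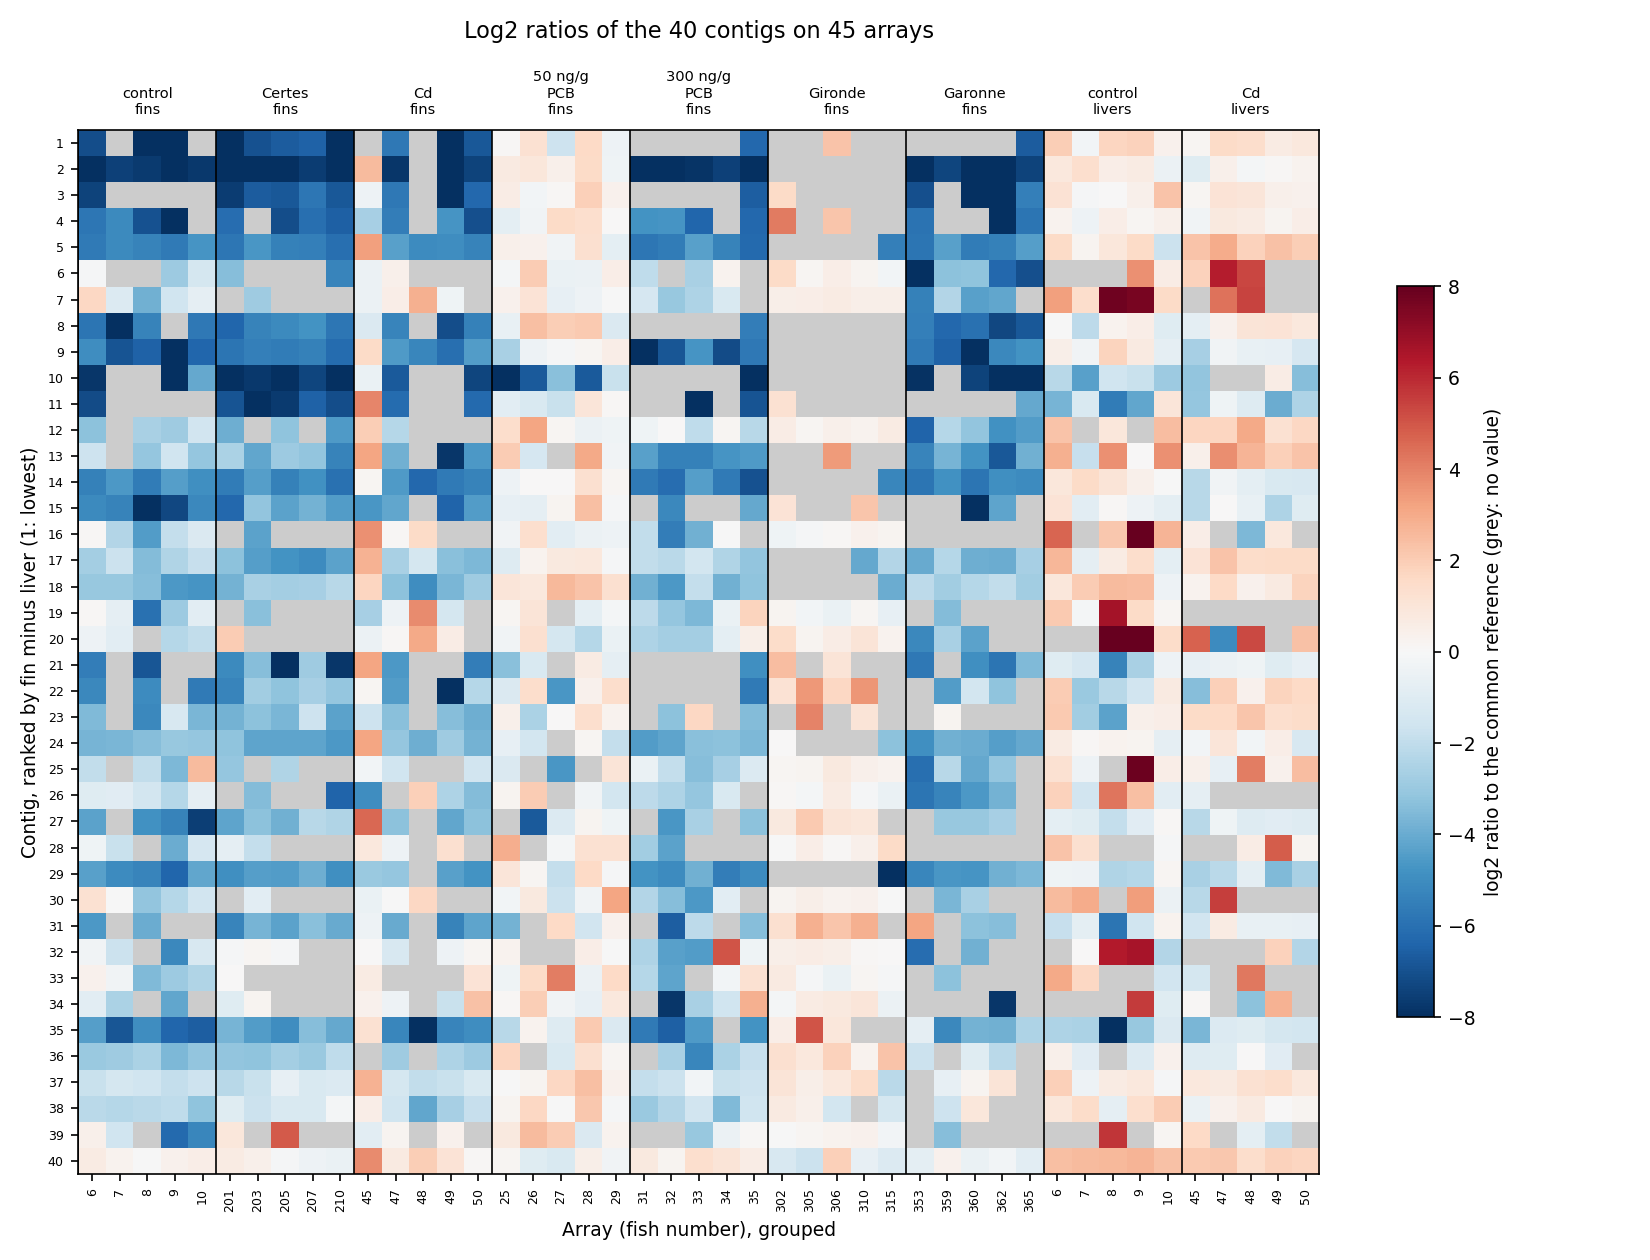
Log2 ratio to the common reference of the 40 contigs (vertical axis, ranked by fin minus liver, 1 the lowest) on each of the 45 arrays (horizontal axis, fish numbers within 9 groups). Blue is lower and red higher than the reference, colours stop at 8 and -8, and grey marks no value. The control, Certes, 300 ng/g PCB and Garonne fins are mostly blue, while the 50 ng/g PCB and Gironde fins, fish 45 of the Cd fins and the livers are mostly pale or red.

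The lowest fin minus liver values were those of contig_20173 (-8.53) and contig_2266 (-8.21). contig_2266 read -8.45, -7.47, -7.63, -7.99 and -7.72 in the 5 control fins and -8.41, -8.15, -8.02, -7.59 and -8.04 in the 5 Certes fins. Its livers read 0.83, 1.36, 0.55, 0.63 and -0.44 in controls and -0.95, 0.38, -0.14, 0.09 and 0.28 after Cd. No fin of these groups came within 6 log2 units of a liver, and the livers scattered around the reference. contig_20173 was measured in 8 of the 10 fins, at -7.51 ± 0.80 (SD, n = 8), and in all 10 livers, at 1.02 ± 0.77 (SD, n = 10). At the threshold, contig_16185 (-2.08) and contig_12608 (-2.01) were just inside, and contig_39223 (-1.98) and contig_4484 (-1.95) just outside. contig_12608 was the only contig of the 40 whose fin mean was above 0, at 0.18 ± 0.44 (SD, n = 10), with livers at 2.19 ± 0.43 (SD, n = 10).

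The fin groups outside the choice fell on different sides of a wide gap. The median of the 40 contigs on each array averaged -4.37 ± 0.82 (SD, n = 5) in Garonne fins, with arrays from -5.65 to -3.41, and -3.06 ± 0.99 in 300 ng/g PCB fins, with arrays from -4.26 to -1.70. In the groups that chose the contigs it was -3.33 ± 0.78 in control fins and -4.05 ± 0.57 in Certes fins. It was 0.13 ± 0.36 in 50 ng/g PCB fins, from -0.24 to 0.66, and 0.37 ± 0.42 in Gironde fins, from -0.34 to 0.73. These last groups did not overlap with the Garonne or the 300 ng/g PCB fins on any array, and they overlapped with the livers. The livers averaged 0.44 ± 0.59 in controls and 0.35 ± 0.46 after Cd (SD, n = 5 each). The Cd fins spanned the gap, with 0.26 in fish 45 and -3.19, -1.70, -3.66 and -4.20 in fish 47, 48, 49 and 50, where the array of fish 48 had values for 16 of the 40 contigs. Over the 817 contigs the same medians averaged between -0.03 and 0.19 in all 9 groups.

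**Figure D2:**
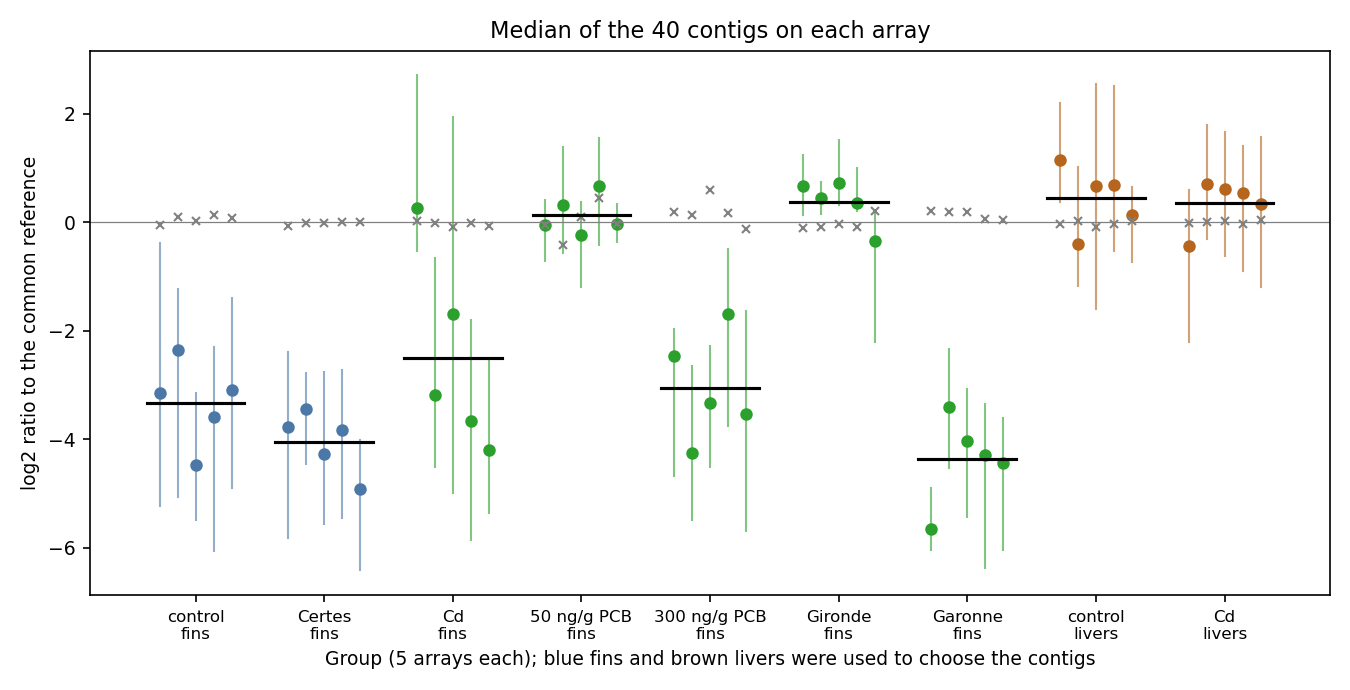
Median log2 ratio to the common reference of the 40 contigs on each array (points) with the range of the middle 50% of contigs (thin lines), by group. Black bars are group means over 5 arrays and grey crosses the median of all 817 contigs on the same array. Blue fins and brown livers chose the contigs, and green fins did not. The Garonne and 300 ng/g PCB arrays lie at or below -1.70, and the 50 ng/g PCB and Gironde arrays between -0.34 and 0.73.

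Against the reference, most of the contigs measured were lower in Garonne and 300 ng/g PCB fins. With limma fitted over all contigs and 35 fin arrays (two-sided, Benjamini-Hochberg adjusted p under 0.05, at least 2 values in the group), 27 of the 31 contigs tested were lower in Garonne fins and 0 higher. Over all 563 contigs tested 24.5% were lower and 21.8% higher. The median of the 31 was -4.25, against 0.18 over all contigs tested. After quantile normalization this median was -2.23, with 20 of the 31 lower. There 140 of all 563 contigs passed in either direction, against 261 before. Of the 27, 13 had a value on all 5 Garonne arrays. In 300 ng/g PCB fins 25 of 34 contigs were lower and 0 higher, where 15.5% of 906 contigs were lower and 10.6% higher. The median was -2.83 against -0.04. The 9 contigs that did not pass had group means from -2.28 to 0.79. After quantile normalization 17 of the 34 were lower, with arrays scaled to one spread 18, and in a fit of this group alone 19. Of all 906 contigs 133, 119 and 93 passed there in either direction, against 236 before. The arrays of these groups took no part in the choice, but the reference is the same pool on every array, and its own spread is not in the test.

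contig_2266 was among the lowest in both groups. It read -8.53, -7.33, -8.41, -8.34 and -7.38 in Garonne fins and -8.47, -8.02, -7.87, -7.47 and -8.34 in 300 ng/g PCB fins beside -8.45 to -7.47 in its control and Certes fins. The differences to the reference were -8.0 ± 0.80 (SE, limma adjusted p = 1.29e-08) and -8.03 ± 0.80 (SE, limma adjusted p = 1.30e-08). contig_9866 was lower in Garonne fins by a similar amount, -8.01 ± 1.07 (SE, limma adjusted p = 4.43e-06), at -7.91, -7.40, -8.26 and -8.48 on the 4 arrays with a value. contig_20211 was lower in 300 ng/g PCB fins by -7.98 ± 1.63 (SE, limma adjusted p = 0.0020) on 2 arrays, fish 33 and 35. Its call ended when the arrays were scaled to one spread (-5.83, limma adjusted p = 0.074), and it could not be tested without either array. Without fish 32, 15 contigs were lower in 300 ng/g PCB fins, beside 164 of all 889 contigs passing in either direction.

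**Figure D3:**
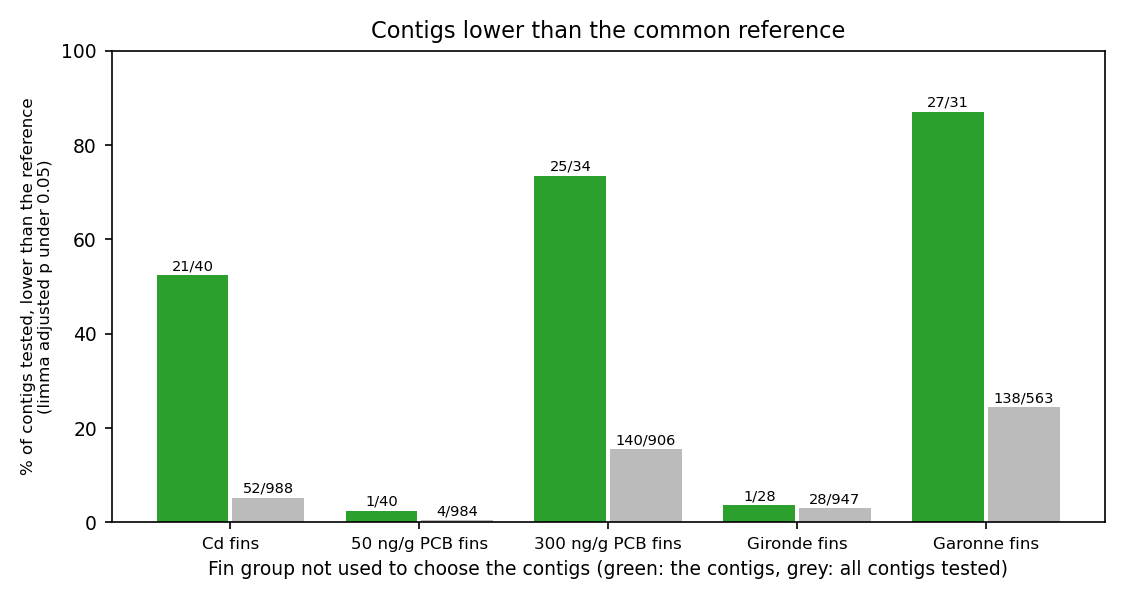
Percentage of contigs tested that were lower than the common reference (limma adjusted p under 0.05) in each fin group outside the choice, for the 40 contigs (green) and for all contigs (grey), with the numbers of contigs above the bars. The green bars stand at 27 of 31 in Garonne fins, 25 of 34 in 300 ng/g PCB fins and 21 of 40 in Cd fins, and at 1 contig each in 50 ng/g PCB and Gironde fins.

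In Cd fins 21 of the 40 contigs were lower than the reference and 1 was higher, where 5.26% of 988 contigs were lower and 4.96% higher. The median was -2.29 against 0.08. The count was 25 of 37 without fish 45, 14 without fish 49, 15 without fish 50 and 16 of 38 without fish 47. Over all contigs tested, 115 of 963, 52 of 982, 77 of 985 and 85 of 956 passed there, in either direction. With all arrays 101 of 988 had passed. In a fit of the Cd fins alone, 1 contig was lower, and 24 of 37 when fish 45 was also left out, an alternative chosen after seeing the data. Over all contigs 3 of 988 and 158 of 963 passed in these fits, so the calls of all contigs moved too. contig_20173 read -5.75, -8.32 and -6.75 in fish 47, 49 and 50 and had no value in fish 45 or 48, a difference of -6.94 ± 0.64 (SE, limma adjusted p = 1.22e-06). contig_5610 read -0.39 in fish 45 and -5.74, -9.66 and -6.30 in fish 47, 49 and 50, a difference of -5.52 ± 0.90 (SE, limma adjusted p = 3.37e-04). Both calls ended in the fit of the Cd fins alone, with limma adjusted p of 0.0525 and 0.210. The contig that was higher, contig_12608, read 3.78, 0.70, 1.98, 1.07 and 0.12, a difference of 1.53 ± 0.41 (SE, limma adjusted p = 0.015). Its call ended without fish 45 or fish 48, on scaling, and in the fits of the Cd fins alone, with limma adjusted p up to 0.301.

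The array of fish 45 differed from the other Cd fins mainly in the contigs measured most often, which are described apart below. In contig_2266 fish 45 read 2.51 and fish 47, 49 and 50 read -7.81, -8.07 and -7.39. In contig_19237 fish 45 read 0.18 and the other 4 ran from -6.30 to -4.52, and in contig_9635 fish 45 read 2.81 and the other 4 ran from -3.60 to -1.43. Across contigs, the values of fish 45 correlated with the mean of the control and Certes fins at -0.031 (Pearson, 38 contigs), and those of fish 47 at 0.938 (38 contigs). These arrays share the reference, contigs are not independent replicates, and the correlations are given without a test.

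At 50 ng/g PCB most of the contigs lay near the reference, and in the Gironde their median did. In 50 ng/g PCB fins 1 of 40 contigs was lower and 0 were higher, where 0.407% of 984 contigs were lower and 0.305% higher, and the median was 0.18 against 0.09. That contig, contig_9866, read -8.64, -6.74, -3.35, -6.71 and -1.76, a difference of -5.44 ± 0.96 (SE, limma adjusted p = 0.0052). It was also low in livers, at -2.36 ± 1.49 (SD, n = 8). Its call ended in the fit of this group alone, with the sign of the array of fish 26 turned, and without fish 25 (limma adjusted p up to 0.572). Of the 40 group means, 33 lay within 1 log2 unit of 0. The arrays of this group held more of the contigs than those of other fin groups, with 6.5% of values missing over the 40 contigs against 17.8% over the 817.

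In Gironde fins 28 of the 40 contigs could be tested, 4 had no value, and 38% of values were missing against 22.1% over the 817. Of the 36 group means, 17 lay within 1 log2 unit of 0, 13 above 1 and 6 below -1. Of the 28, 1 was lower (2.96% of 947 contigs) and 2 were higher (5.91%), and the median was 0.39 against -0.04. Recentring gave 2 lower and 0 higher, quantile normalization 1 lower and 3 higher, and scaling to one spread 1 lower and 6 higher, so the direction of these few calls moved with the scaling. Of all 947 contigs 103, 114 and 159 passed there, in either direction. contig_9635 was lower at -4.10 and -2.34 in eels A310 and A315, a difference of -3.22 ± 0.87 (SE, limma adjusted p = 0.014). contig_35629 was higher at 4.18 and 2.22 in eels A302 and A306, a difference of 3.20 ± 0.88 (SE, limma adjusted p = 0.019). contig_33258 was higher at 1.27, 0.84, 1.84, 0.30 and 2.27 on all 5 arrays, a difference of 1.30 ± 0.42 (SE, limma adjusted p = 0.047). The call of contig_9635 ended in the fit of the Gironde fins alone (limma adjusted p = 0.341). The call of contig_35629 ended under 4 of its 10 alternatives and that of contig_33258 under 9 of its 13. contig_9635 and contig_35629 had values on 2 Gironde arrays each and could not be tested without either array.

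Among the Gironde eels, A315 had the lowest median over the 40 contigs, at -0.34, against 0.35 to 0.73 in the other 4. Its values correlated with the mean of the control and Certes fins at 0.705 across 24 contigs, while the correlations of the other 4 Gironde eels ran from -0.816 to -0.320. In contig_31893 A315 read -2.16 and the other 4 read 1.02, 0.48, 0.85 and 1.46. contig_19237 had a value on the array of A315 only, at -5.19, beside -5.12 ± 0.56 in control and Certes fins (SD, n = 10). The group means of the 300 ng/g PCB fins correlated with the control and Certes mean at 0.918 over 40 contigs, and those of Cd fins at 0.863 (40 contigs). The correlations were 0.581 in Garonne fins (38 contigs), 0.308 in 50 ng/g PCB fins (40 contigs) and -0.037 in Gironde fins (36 contigs). Control livers correlated at 0.652 (40 contigs) and Cd livers at 0.459 (39 contigs). The rule bounds the fin mean by the liver mean, which favours the correlations of the livers, and nothing about the tissues is read from them. All of these correlations are a description over contigs that share the reference, and the control and Certes mean was used in the choice.

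**Figure D4:**
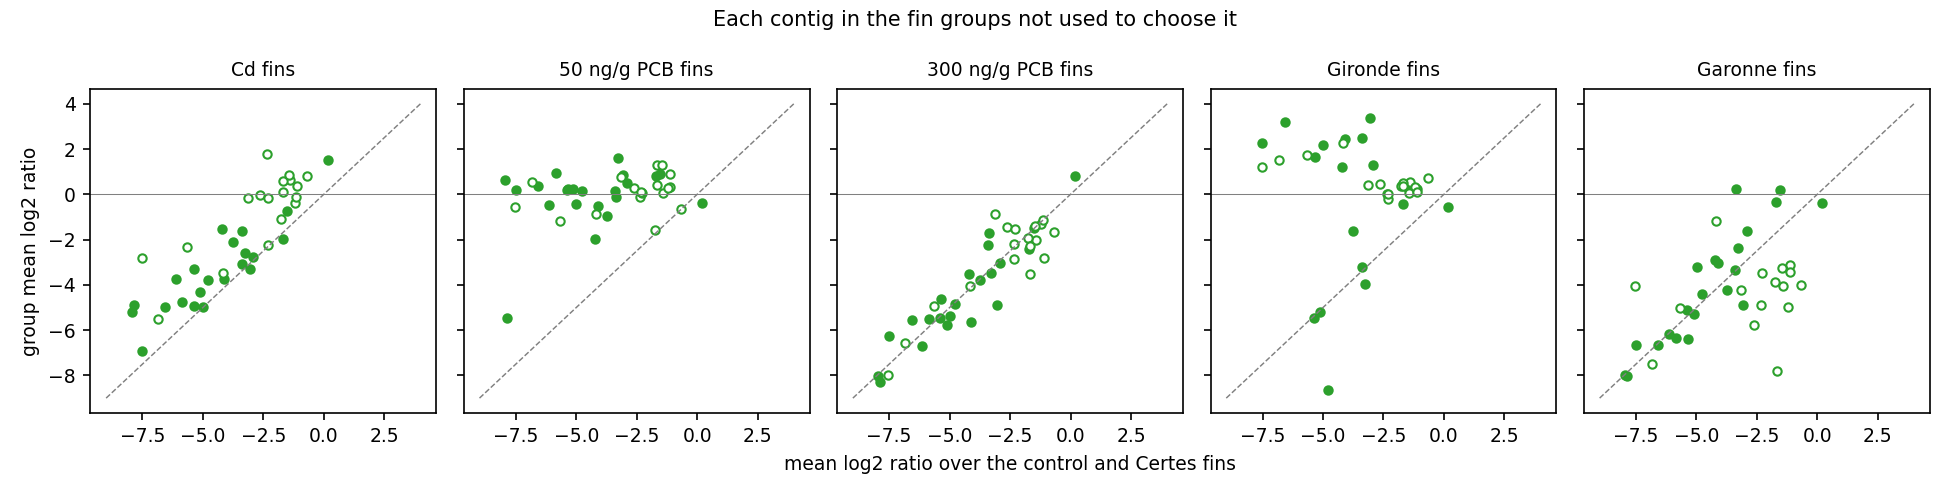
Group mean log2 ratio of each contig (vertical axes) in the 5 fin groups outside the choice against its mean over the control and Certes fins (horizontal axes). Filled points are the 22 contigs with at least 8 of 10 values on the horizontal axis and open points the 18 with 5 to 7, and the dashed line marks equal values. Points follow the line in 300 ng/g PCB fins (Pearson 0.918) and lie near 0 in 50 ng/g PCB fins (0.308).

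The PCB doses were compared with each other, since neither group chose the contigs. Of 34 contigs tested, 18 were lower at 300 ng/g and 0 higher, where 8.33% of 900 contigs were lower and 5.22% higher, and the median difference was -2.77 against -0.10. contig_2266 read 0.72, 0.90, 0.42, 1.5 and -0.35 at 50 ng/g and between -8.47 and -7.47 at 300 ng/g, a difference of -8.67 ± 1.13 (SE, limma adjusted p = 5.37e-06). The doses did not overlap in this contig, which was named for its large difference, and the share of all contigs without overlap was not counted. contig_20211 read -0.82, -1.22, -1.78, 0.97 and 0.11 at 50 ng/g and -9.02 and -6.94 on the 2 arrays at 300 ng/g, a difference of -7.43 ± 1.93 (SE, limma adjusted p = 0.017), and its call ended on scaling (-5.29, limma adjusted p = 0.221). The count was 12 without fish 32 of the 300 ng/g group, 14 after quantile normalization and 13 after scaling to one spread. Over all contigs 94 of 883, 80 of 900 and 63 of 900 passed there in either direction, against 122 of 900 before. All 5 arrays at 50 ng/g had medians within the range of the livers, and a difference between these sets of arrays and one between the doses cannot be told apart.

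Between the wild sites outside the choice, 21 of the 40 contigs could be tested. In 16 the Gironde fins were higher than the Garonne fins and in 0 lower, where 27.2% of 526 contigs were higher and 18.1% lower, and the median difference was 4.59 against -0.15. contig_35629 read 4.18 and 2.22 in Gironde eels A302 and A306 and -5.92, -8.18 and -5.84 in Garonne eels A353, A362 and A365, a difference of 9.85 ± 1.14 (SE, limma adjusted p = 1.49e-06). contig_13937 read 1.07 and 2.19 in A302 and A310 and -8.61 and -4.21 in A360 and A362, a difference of 8.04 ± 1.36 (SE, limma adjusted p = 8.64e-05). The sites did not overlap in either contig, but both were named for their large differences and rest on 2 or 3 values a site. How many of all contigs had no overlap was not counted. The 5 contigs that did not pass include contig_9635 (0.14) and contig_31893 (0.12). Without Garonne eel A360 11 contigs were higher, with array weights 10, and with at least 4 values per site 5 of 6. Over all contigs tested, 189 of 465, 172 of 526 and 105 of 215 passed there, in either direction. All 5 Gironde arrays and 0 Garonne arrays had medians within the range of the livers. That of A315 was -2.82 over its 10 contigs with at least 8 of the 10 fin values of the choice. A difference between these sets of arrays and one between the sites cannot be told apart.

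Control and Certes fins, which together set the low fin mean, were compared with each other because their difference was not used. Of 32 contigs tested 0 passed, as did 0% of all 876 contigs with limma. At an unadjusted p under 0.05 there were 5 of the 32 and 50 of the 876, and the median difference was -0.25 against 0.06. contig_16185 had the smallest p, with 0.40, -1.57, -6.21 and -5.21 in control fins and 0.90 and 4.89 in Certes fins (difference -6.04 ± 1.42, SE, limma adjusted p = 0.149). contig_21730 read -0.98, -0.93, -1.46, -2.30 and -0.73 in control fins and -3.45 and -6.42 in Certes fins (difference 3.66 ± 1.15, SE, limma adjusted p = 0.324). With array weights both passed, at limma adjusted p of 0.0031 and 0.0043. In that fit 4 of the 32 contigs passed, beside 57 of all 876. Without control fish 6 contig_16185 passed.

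In liver, Cd exposure was compared with the unexposed livers. Of 38 contigs tested 0 passed, as did 0% of all 897 contigs with limma. At an unadjusted p under 0.05 there were 5 of the 38 and 73 of the 897, and the median difference was -0.15 against 0.09. contig_19237 had the smallest p, at 0.94, 1.54, 1.06, 0.42 and -0.04 in control livers and -2.21, -0.28, -0.76, -1.19 and -1.25 after Cd. These livers did not overlap, and the difference was -1.92 ± 0.42 (SE, limma adjusted p = 0.370). contig_12608 read 2.44, 2.54, 2.59, 2.73 and 2.35 in control livers and 2.10, 2.18, 1.41, 1.83 and 1.69 after Cd, again without overlap, a difference of -0.69 ± 0.22 (SE, limma adjusted p = 0.461). Both contigs were named for the smallest p of the 38, which favours livers without overlap. The share of all contigs without overlap was not counted. Neither contig passed under any of its 16 alternatives, with limma adjusted p down to 0.138 for contig_19237 and 0.308 for contig_12608. The highest and lowest of the 38 differences were 2.43 and -5.31.

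**Figure D5:**
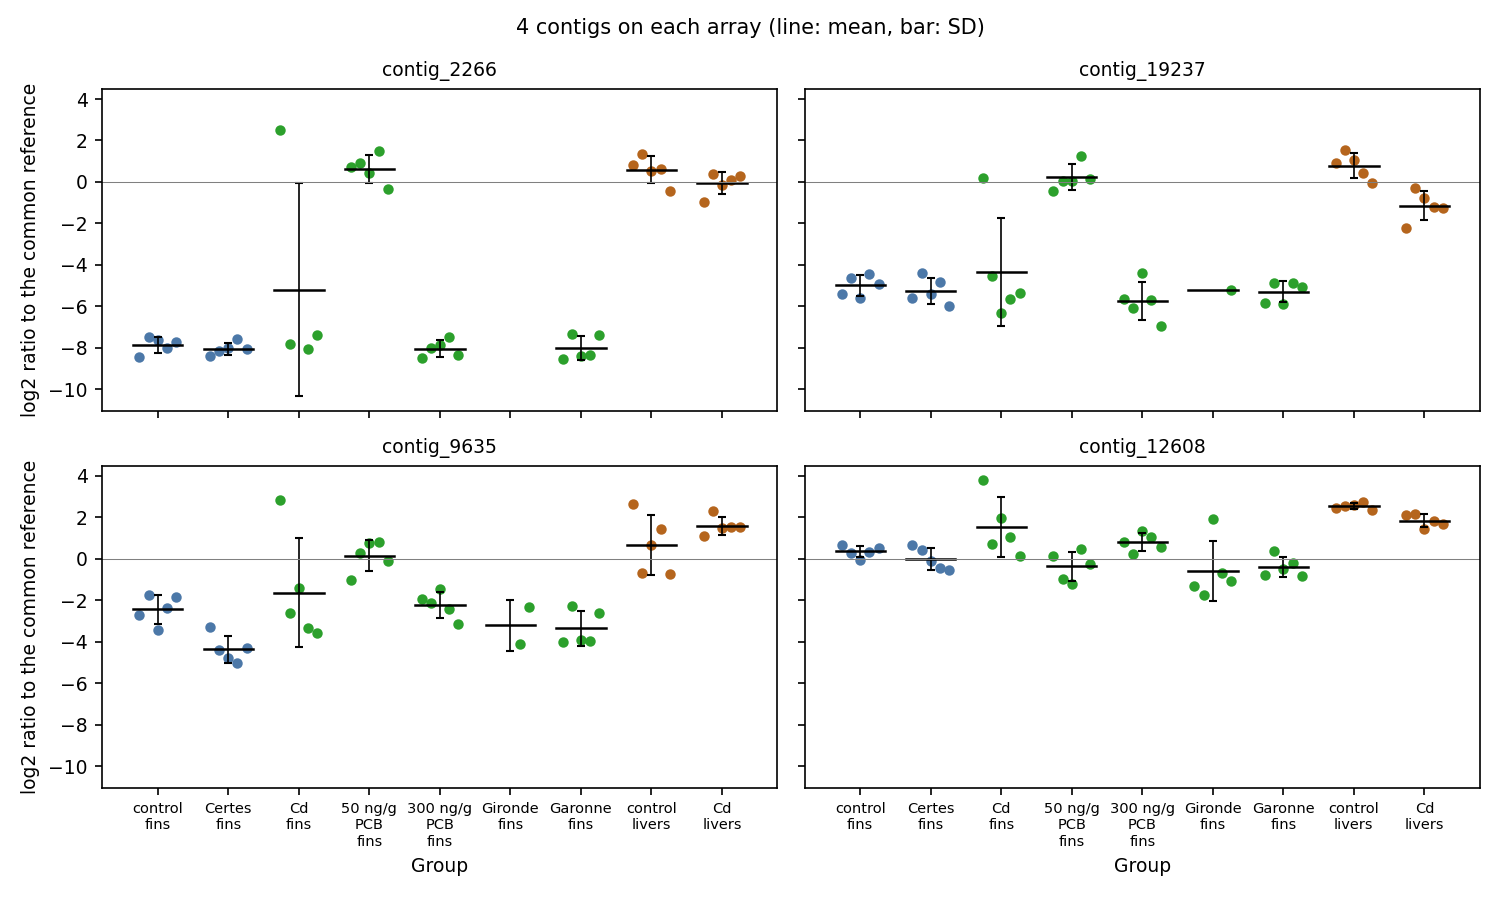
Log2 ratio to the common reference of contig_2266, contig_19237, contig_9635 and contig_12608 on each array (points), by group, with the mean (line) and SD (bar) of each group. contig_2266 lies between -8.53 and -7.33 in control, Certes, 300 ng/g PCB and Garonne fins and between -0.35 and 1.5 in 50 ng/g PCB fins, and contig_12608 is highest in livers, from 1.41 to 2.73, with 3 fins in or above that range: fish 45 (3.78) and 48 (1.98) of the Cd fins and Gironde eel A306 (1.92).

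The values of a contig varied between arrays, in liver as in fins. Over 5 arrays a contig of the list had a median SD of 1.40 (control livers) or 0.82 (Cd livers), against 0.68 and 0.47 over the 817 contigs. The same SDs were 1.00 against 0.58 in control fins, 0.64 against 0.51 in Certes fins and 2.06 against 1.11 in Cd fins. They were 1.28 against 1.08 in 50 ng/g PCB fins, 1.06 against 0.69 in 300 ng/g PCB fins and 1.05 against 0.67 in Garonne fins. Gironde fins went the other way, at 0.65 against 1.02. The contigs with the highest liver means were contig_20263 and contig_25119. contig_20263 read 3.27, 1.40, 7.80, 7.58 and 1.55 in control livers and 4.33 and 5.42 in the 2 Cd livers with a value, fish 47 and 48. contig_25119 read 8.14, 8.68 and 1.47 in control fish 8, 9 and 10 and 4.73, -5.04, 5.30 and 2.34 in Cd fish 45, 47, 48 and 50. Control fish 8 and 9 were the high livers of both. The lowest liver means were those of contig_25366 (-2.59 ± 2.13, SD, n = 10) and contig_20211 (-2.47 ± 2.04, SD, n = 10), which were lower still in the fins of the choice, at -4.99 ± 1.22 (n = 10) and -7.53 ± 1.19 (n = 6). Across contigs, the means of control and Cd livers correlated at 0.574 (Pearson, 39 contigs, a description).

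The contigs measured most often and least often were also described apart. A split made after seeing the values set 22 contigs with at least 8 of the 10 fin values of the choice against 18 with 5 to 7. As the median of group means, the 22 lay at -5.15 in control fins and the 18 at -2.03. In Certes fins these values were -4.25 and -3.10, in 300 ng/g PCB fins -4.86 and -2.11, and in Cd fins -3.51 and -0.12. In these 4 groups the less measured contigs lay nearer to the reference. The values were close to each other in Garonne fins, at -4.33 and -4.07, and in 50 ng/g PCB fins, at 0.18 and 0.20, and in Gironde fins they were 0.77 and 0.39. In livers the less measured contigs lay farther from the reference, at 2.08 against 0.30 in controls and 0.60 against 0.27 after Cd. Single arrays of the 22 contigs had medians between -4.71 and -4.02 in Cd fish 47 to 50 and of 1.39 in fish 45. For the 18 contigs the median was -0.30 in fish 45, within the range of the other Cd fins. These were at -0.43, 2.40 (6 contigs), -0.91 and -3.46 in fish 47, 48, 49 and 50. On the Gironde arrays 41.8% of the values of the 22 were present, with medians of 0.90 to 1.76 in 4 eels and -2.82 in A315. Of the values of the 18, 86.7% were present there. Control fish 6 among the fins of the choice and control fish 10 among the livers held all 18, with medians of -0.38 and 0.21. The part of the missing values in these levels was not tested.

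The contigs measured most completely in the fins outside the choice differed among themselves. Of the 7 contigs with at least 22 of these 25 values, the lowest over these fins was contig_25366 and the highest contig_12608. contig_25366 read -5.68, -6.52, -4.54 and -4.76 in 300 ng/g PCB fins and -0.71, -5.16, -3.77, -3.85 and -2.46 in Garonne fins, but 0.55, 5.05 and 0.88 in Gironde fins and -2.23, 0.26, -1.01, 2.09 and -1.15 in 50 ng/g PCB fins. contig_9635 read -4.02, -2.27, -3.90, -3.98 and -2.63 in Garonne fins, -1.95, -2.15, -1.44, -2.41 and -3.17 in 300 ng/g PCB fins and between -1.01 and 0.83 in 50 ng/g PCB fins. Its 50 ng/g and 300 ng/g PCB fins did not overlap, but the share of all contigs without overlap was not counted. As given above, the 50 ng/g PCB arrays all had medians within the range of the livers. contig_31893 was closer to 0, between -1.91 and -0.23 in 300 ng/g PCB fins and at -0.63, 0.19 and 1.06 in the 3 Garonne fins with a value. contig_12608 read 0.79, 0.21, 1.36, 1.03 and 0.57 in 300 ng/g PCB fins, -0.78, 0.35, -0.51, -0.20 and -0.83 in Garonne fins, and -1.31, -1.73, 1.92, -0.66 and -1.08 in Gironde fins, beside -0.52 to 0.68 in its control and Certes fins. Apart from fish 45 and 48 of the Cd fins and Gironde eel A306, no fin of contig_12608 reached the lowest liver, at 1.41.

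The control and Cd groups have the same fish numbers in fin and in liver, though nothing in the labels ties a number to 1 animal. Taken by number, the median over contigs of fin minus liver was -4.39, -3.72, -5.61, -6.12 and -3.49 for control fish 6 to 10. Both tissues of these control fish were in the choice. In Cd fish 47, 48, 49 and 50 the median was -4.24, -3.65, -4.48 and -3.89, with 13 contigs measured on both arrays of fish 48. The Cd fins were not in the choice but the Cd livers were, so these differences are a description and no independent check. Fish 45 went the other way, at 1.57, with 23 of 34 contigs higher in fin than in liver. The medians over the 817 contigs lay between -0.21 and 0.37 for these 10 numbers.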

How the data were processed

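Total RNA of caudal fin and liver was compared with a pooled reference on 2-colour arrays. The values used were the deposited log2 ratios, processed and centred by the authors before deposit. The log base is not stated, and log2 was taken from the range of the values (largest absolute value 17.5). How the background was corrected, spots averaged and values filtered is not given in the sources used here. A deposited table of scanner intensities with 180 columns of per-sample values was not used, since slide numbers, not sample names, head its columns. Missing values were left missing. Depth has no meaning for arrays, and their number limits the precision.

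Groups and fish numbers came from the sample titles. The labels do not say which samples were processed separately, so p-values measure the spread between arrays, which may in part be technical. The fits used limma 3.58.1 under R 4.3.3 (lmFit on group means, then eBayes) over all contigs, with the 35 fin arrays in 1 fit and the 10 liver arrays in another. Tests were two-sided, with Benjamini-Hochberg adjustment over all contigs that had at least 2 values in each group, and a threshold of 0.05. The fitting was tested on simulated data. Exposed fins were not tested against control fins, nor Gironde or Garonne fins against Certes fins, because the contigs were chosen for low values in control and Certes fins.

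The contigs and the tests were chosen with earlier results of these data known. Contigs named are the lowest in fin minus liver, those at the threshold, those with the largest differences past the threshold (or the smallest p where none passed), at most 2 in each direction per comparison, those lowest and highest among the most completely measured, and those lowest and highest in liver. The marker lists of liver, fin and blood have no result, since no contig carried a gene name. contig_4484, further outside the threshold, was added after its value was seen. Of 990 pairs of arrays 9 correlated below -0.3, 7 of them with fish 26 of the 50 ng/g PCB group and the lowest at -0.530. Since the labels state the dyes, no direction was changed. Turning the sign of fish 26 or of Gironde eel A306 is among the alternatives. No 2 arrays of a group correlated above 0.880, and none was treated as a repeat.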

Additional observations from a re-analysis of the deposited data

Results flagged for a closer look

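In 8 of 119 sets of 4 or 5 arrays looked at (a named contig in a group), 1 array lay far from the others relative to the range of its group, and chance alone flags about 1 in 20, or 5.95. In Cd fins this array was fish 45 for contig_2266, at 2.51 (the others between -8.07 and -7.39), for contig_19237, at 0.18 (the others between -6.30 and -4.52), and for contig_31893, at 2.76 (the others between -1.96 and -1.24). The remaining flags were contig_31893 in 300 ng/g PCB fish 33, at -0.23 (the others between -1.91 and -1.66), and in Gironde eel A315, at -2.16 (the others between 0.48 and 1.46). In liver they were contig_25366 in control fish 8, at -8.05 (the others between -3.05 and -1.18), and in Cd fish 45, at -3.67 (the others between -1.48 and -0.96), and contig_33258 in Cd fish 48, at 0.027 (the others between -1.03 and -0.90).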

How the results depend on the processing

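The number of contigs chosen was 22 with at least 8 values in each tissue, 52 after quantile normalization (37 shared), 31 after recentring on the 63 contigs measured on every array (all 31 shared), and 35 to 43 when 1 array was left out. The count of contigs lower in Garonne fins was 23 to 27 without 1 array, in 300 ng/g PCB fins 15 to 24, in Cd fins 14 to 25, and in 50 ng/g PCB and Gironde fins 0 to 1. It was 12 to 19 between the PCB doses, 11 to 16 between Gironde and Garonne, 0 to 1 between control and Certes fins and 0 for Cd in liver. Over all contigs, 185 of 502 to 219 of 554 passed there in Garonne fins, in either direction. In 300 ng/g PCB fins 139 of 890 to 254 of 801 passed, and in Cd fins 52 of 982 to 115 of 963. The range was 1 of 965 to 26 of 917 at 50 ng/g PCB and 65 of 939 to 82 of 907 in Gironde fins. Between the PCB doses 82 of 884 to 159 of 796 passed, and between Gironde and Garonne 189 of 465 to 258 of 479. The Gironde count was 0 with a minimum of 4 values, 5 with a minimum of 1, 2 on recentring, 0 in a fit of that group alone and 2 with the sign of eel A306 turned. Over all contigs 48 of 738, 94 of 982, 103 of 947, 0 of 947 and 49 of 947 passed there, in either direction. At 50 ng/g PCB the count was 3 with array weights, 0 in a fit of that group alone and 0 with the sign of fish 26 turned. Of all 984 contigs 41, 0 and 0 passed there. In Cd fins the count was 1 in a fit of that group alone, where 3 of all 988 contigs passed. Between Gironde and Garonne 5 contigs passed with a minimum of 4 values and 10 with array weights, and between control and Certes fins 4 passed with array weights. Over all contigs tested these counts were 105 of 215, 172 of 526 and 57 of 876. Leaving the 50 ng/g PCB and Gironde arrays and that of fish 45 out of the fit, chosen after seeing the data, gave 27 lower contigs in Garonne fins, 25 in 300 ng/g PCB fins, 25 in Cd fins and 0 between control and Certes fins. Over all contigs tested, 361 of 563, 326 of 906, 164 of 963 and 0 of 876 passed in that fit, in either direction. With all arrays 261 of 563, 236 of 906, 101 of 988 and 0 of 876 had passed. Recentring moved the median over all contigs from 0.18 to 0.85 in Garonne fins, from -0.04 to -0.43 in Gironde fins, from -0.15 to -1.15 between these sites and from 0.06 to -0.55 between control and Certes fins. It moved the median level of the 40 contigs to -3.31 in Certes fins, -0.089 in Gironde fins and -0.20 in Cd livers. In Garonne fins this level was -2.20 after quantile normalization and -3.20 after scaling. On contig_12608, the contig with a value on all 45 arrays, the levels were 0.36 in control, 0.0037 in Certes, 1.53 in Cd, -0.37 in 50 ng/g PCB, 0.79 in 300 ng/g PCB, -0.57 in Gironde and -0.39 in Garonne fins, and 2.53 in control and 1.84 in Cd livers. The cause of these changes was not tested. Without 1 array the median level ran from -3.58 to -3.05 in control, -4.20 to -3.84 in Certes, -3.19 to -2.07 in Cd, -0.0013 to 0.22 in 50 ng/g PCB, -3.40 to -2.76 in 300 ng/g PCB, 0.28 to 0.55 in Gironde and -4.60 to -4.04 in Garonne fins, and from 0.26 to 0.65 in control and 0.26 to 0.54 in Cd livers. No paired analysis was possible because the groups compared by a test share no fish numbers. Fin and liver, which share them in the control and Cd groups, were compared only as a description. Limits: 5 arrays a group, contigs without names, no dye swap, values missing unevenly, and arrays centred to 0.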
